A study of Mus musculus with 4 samples.

Results

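The data describe 8 genes of inflammatory signalling among the 383 genes of a MERFISH panel: the cytokines Tnf, Il1b, Il18 and Tgfb1, the NF-kB subunits Nfkb1 and Rela, the NF-kB regulator Nfkbiz, and Stat3. They were taken as a named list of symbols, by a rule with no threshold on their counts, and all 8 were measured in every section. MERFISH reads single mRNA molecules in tissue by successive rounds of imaging. It was applied to bilateral coronal sections that included the striatum, 10 µm thick, of wild-type mice of the strain C57BL/6NTac. The ages compared were young mice (2 months, 2 sections) and aged mice (18 months, 2 sections). The labels name no treatment. The study's methods describe its replicates as biological, while the labels do not tie sections to animals, and p-values here measure the spread between these sections. The comparisons were the level of each gene by cell class, the change from 2 to 18 months, and the difference between white matter and other tissue.

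Tnf and Il1b are released mainly by activated microglia and macrophages, and both act on receptors that free NF-kB from its inhibitors. Il1b and Il18 are made as inactive precursors that need cleavage by caspase-1, so mRNA alone does not give the amount of active cytokine. Tgfb1 restrains inflammation and is needed to keep microglia in their homeostatic state. Nfkb1 encodes the precursor of the p50 subunit and Rela the p65 subunit of the NF-kB transcription factor, and Nfkbiz encodes a nuclear member of the IkB family that is itself induced by NF-kB. Stat3 carries signals of cytokines of the interleukin 6 family and drives reactive change in astrocytes.

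The deposited tables name genes by symbol alone. In RefSeq annotation of GRCm38.p6 all 8 are protein-coding. Tnf lies on chromosome 17 (35199367 to 35202007), Il1b on chromosome 2 (129364569 to 129371164), Il18 on chromosome 9 (50554700 to 50581841) and Tgfb1 on chromosome 7 (25687002 to 25705077). Nfkb1 lies on chromosome 3 (135584655 to 135691969), Rela on chromosome 19 (5637442 to 5648134), Nfkbiz on chromosome 16 (55811375 to 55838954) and Stat3 on chromosome 11 (100886806 to 100939594). Promoter windows of 250 bases before and 50 after the start site were found for 6 of the 8, not for Nfkb1 and Nfkbiz. The windows of Tnf and Il18 are shown, since the age change and the zone difference described further on concern these 2 genes. Capitals mark matches on either strand to TATAAA, a core promoter element, and to GGGNNNNNCC, the loose outline of NF-kB sites.
Tnf, chr17:35201958-35202257, minus strand: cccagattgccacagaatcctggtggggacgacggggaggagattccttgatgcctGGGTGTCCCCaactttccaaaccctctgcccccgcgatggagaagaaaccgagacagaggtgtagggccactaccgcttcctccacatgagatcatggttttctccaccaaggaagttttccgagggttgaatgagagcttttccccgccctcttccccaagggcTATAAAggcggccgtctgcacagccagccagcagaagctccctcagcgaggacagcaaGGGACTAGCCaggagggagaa
Il18, chr9:50554450-50554749, plus strand: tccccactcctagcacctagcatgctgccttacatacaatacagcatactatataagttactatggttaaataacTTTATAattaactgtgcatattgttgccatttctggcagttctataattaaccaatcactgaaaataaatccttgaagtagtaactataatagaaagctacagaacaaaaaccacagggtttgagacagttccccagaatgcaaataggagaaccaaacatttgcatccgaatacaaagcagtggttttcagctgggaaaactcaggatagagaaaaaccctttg
Tnf held TATAAA 29 bases before the start site, and 2 places that match GGGNNNNNCC, one of which reads as a match on both strands. Il18 held TATAAA on the opposite strand 175 bases before the start and no match to GGGNNNNNCC. Il1b likewise held TATAAA, 31 bases before its start, whereas Tgfb1, Rela and Stat3 held none. Of GGGNNNNNCC, Tgfb1 held 11 matches and Rela 4, both strands counted, and Il1b and Stat3 held 0. Of all 32851 promoter windows in the table, 13.6% held TATAAA and 50.8% held GGGNNNNNCC, so the second motif is common. No member's window held TTCNNNGAA, an outline of STAT sites that 8.3% of the windows held.

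Kept cells (at least 10 genes detected and at least 50 µm³) numbered 68011 to 74624 per section, and the decoded transcripts of a section from 18816375 (aged 1) to 36116711 (young 1). Per kept cell the median was 400 and 325 transcripts at 2 months against 215 and 293 at 18 months. Sections shared 0 cell barcodes. Clustering without the 8 genes gave 7 classes, named by marker genes as microglia-like, vascular-like, astrocyte-like, oligodendrocyte-like, oligodendrocyte precursor-like, medium spiny neuron-like and neuron-like. Their markers were a median of 4.01-fold (neuron-like) to 94.4-fold (microglia-like) higher than in the other classes. Cells whose share of another class's markers reached at least 0.5 times the mean share of that class were set aside as mixed. These were 28.0% to 35.0% of microglia-like and 31.9% to 37.0% of oligodendrocyte-like cells per section, against 1.36% to 3.82% of both neuronal classes. The neuronal classes were not screened against each other, so their low share does not compare directly with that of the other classes. The remaining 6284 microglia-like cells and 22141 astrocyte-like cells bear on most of what follows. Clustered again, these microglia-like cells fell into subclusters named by relatively higher markers of astrocytes (2199 cells), neurons (817), endothelial cells (493) and oligodendrocytes (341). A subcluster of 2434 cells was left unnamed. The vascular-like cluster passed the marker list of astrocytes as well as that of vascular cells. The 7 astrocyte markers summed in vascular-like cells to 481 to 514 per 10000 transcripts of the class. Their subclusters included 4897 unnamed and 882 neuron-like cells. The part of such markers in the levels of microglia-like and vascular-like cells was not tested. Levels are given as transcripts of a gene per 10000 transcripts of its class. They were compared between classes and sections and not between genes, whose probes may differ in efficiency. All kept cells of a section were used, whereas the paper first kept those within the striatum. Tissue rich in medium spiny neuron-like cells (at least 40% of the cells within 150 µm) held 1251 to 1500 astrocyte-like cells per section, of 5038 to 6030. Of neuron-like cells it held 1397 to 1660, of 20023 to 24509. Most cells of these 2 classes thus lay in other tissue.

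The floor of detection was set by the 20 panel genes with the fewest transcripts, leaving out the 8 genes themselves. These ran from Ppp1r14b (2208 transcripts in all), Myh8 (3487) and Il7 (3817) up to Ms4a7 (7839), Ctla2a (8027) and Isg20 (9160). In a given class and section, the median of the 20 lay between 0.195 and 0.673 per 10000. A gene was called above the floor in a class where it exceeded the highest of the 20 in each of the 4 sections. Genes with probes that work poorly are not told apart from genes that are little expressed. By this rule 7 of the 8 genes were above the floor in at least 1 class, all but Il1b, as were 95.3% of the 363 panel genes outside the 20. The share among the 8 genes was thus close to the background of the panel. In microglia-like cells the highest of the 20 was Il1a, the other interleukin 1 ligand, at 29.5 and 23.7 per 10000 in the young and 23.0 and 31.1 in the aged sections. Though its total over all cells was among the 20 lowest, Il1a did not stand for the floor in these cells. By class, 7 of the 8 genes were above the floor in oligodendrocyte-like cells (72.7% of panel genes were), 6 each in astrocyte-like (70.2%), oligodendrocyte precursor-like (68.0%), medium spiny neuron-like (73.6%) and neuron-like cells (84.3%), and 5 in vascular-like cells (58.1%). With Il1a in the set, Tgfb1 alone of the 8 was above the floor in microglia-like cells (15.4% of panel genes were). Without Il1a, an alternative added after the values were seen, Il18, Tgfb1, Nfkb1, Rela, Nfkbiz and Stat3 were, as were 66.4% of panel genes.

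**Figure D1:**
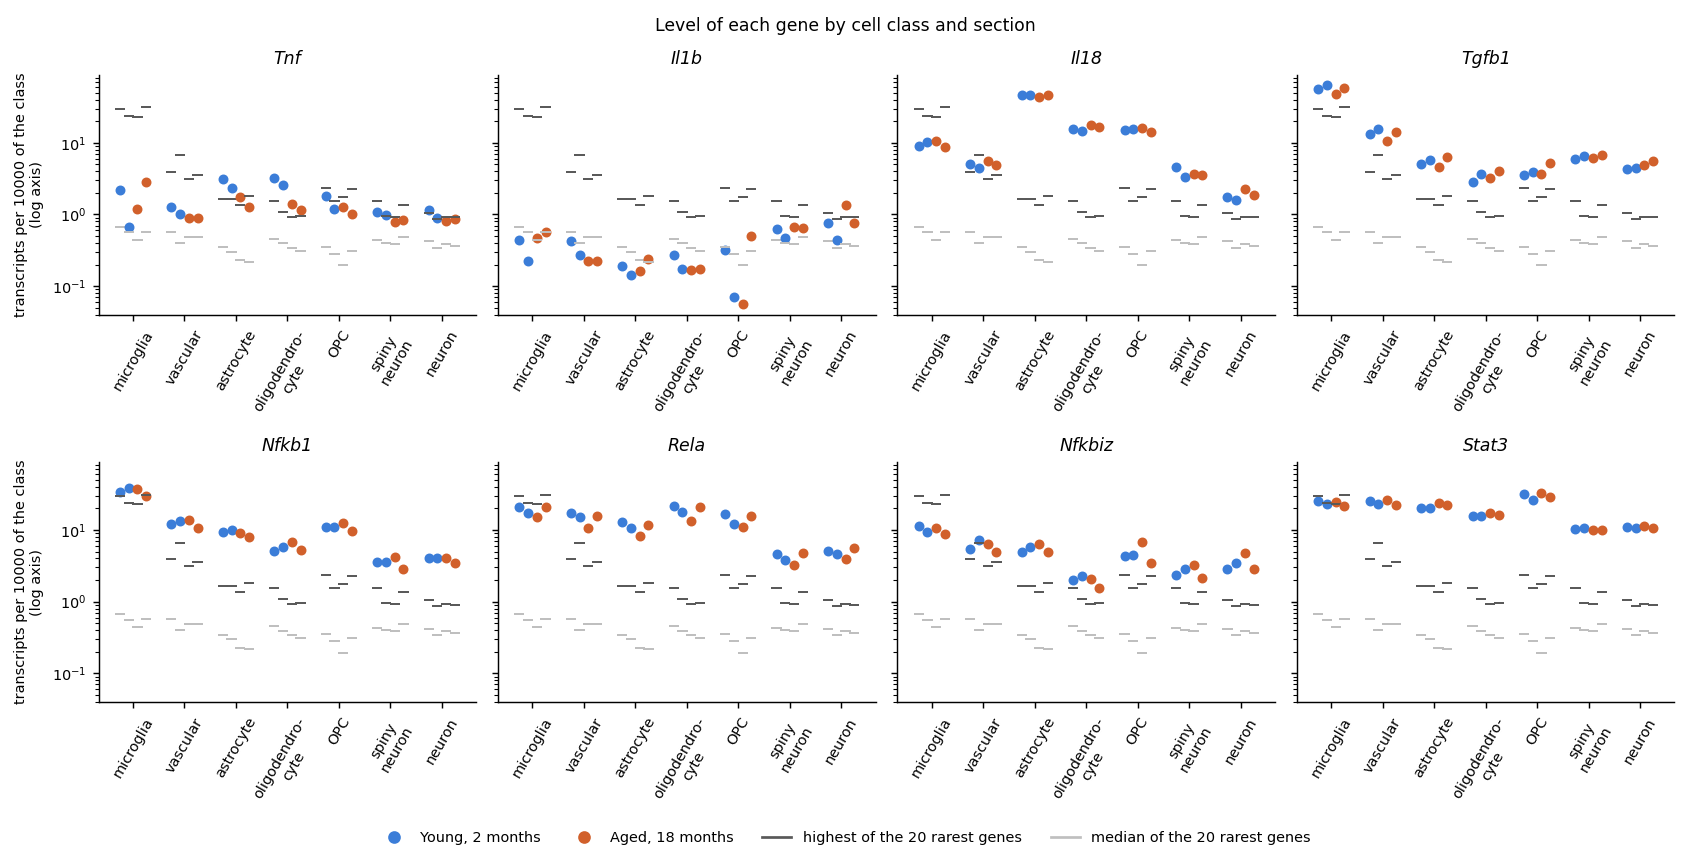
Level of each of the 8 genes (transcripts per 10000 of the class, log axis) in 7 cell classes, with 1 point per section (blue 2 months, orange 18 months) and bars for the highest and the median of the 20 rarest panel genes; OPC stands for oligodendrocyte precursor. Tgfb1 and Nfkb1 peak in microglia-like cells and Il18 in astrocyte-like cells, while Il1b lies below the dark bars in all classes but for 1 neuron-like point, and the dark bars of microglia-like cells are Il1a.

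Among the ligands, Tgfb1 and Il18 were above the floor in several classes, and each had its own leading class. Tgfb1 was highest in microglia-like cells, at 56.2 and 63.1 per 10000 at 2 months against 47.6 and 59.0 at 18 months, a mean of 56.5 ± 6.57 (SD, n = 4 sections). The next class was vascular-like, at 10.7 to 15.6, 4.19-fold lower on average. Within vascular-like cells a subcluster named border macrophage-like from its markers, of 134 to 178 cells per section, held 35.98, 34.5, 28.9 and 43.0 per 10000. Mural-like cells held 15.7 to 19.7 and endothelial-like cells 9.19 to 13.7. The other 5 classes lay between 2.83 and 6.68 per 10000, where neighbours in the order overlapped. Against the 40 rarest genes Tgfb1 was above in vascular-like, medium spiny neuron-like and neuron-like cells, and not in microglia-like cells. Microglia-like cells held 0.999% to 1.18% of the transcripts of all panel genes and 8.65% to 11.2% of those of Tgfb1.

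Il18 was highest in astrocyte-like cells, at 46.4 and 46.2 per 10000 at 2 months against 43.6 and 46.7 at 18 months, with a mean of 45.7 ± 1.42 (SD, n = 4). The 4 sections lay within 3.04 of each other, and the lowest was above every value of the other classes. Oligodendrocyte-like cells followed at 14.6 to 17.6 and oligodendrocyte precursor-like cells at 14.2 to 16.3, and these 2 ranges overlapped. Microglia-like cells came next, with 9.08, 10.1, 10.6 and 8.62 per 10000. Neuron-like cells were lowest, at 1.61 to 2.24, yet above the floor in every section. Astrocyte-like cells held 4.57% to 5.28% of all panel transcripts and 35.1% to 40.3% of those of Il18.

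Tnf was close to the floor. Among the 7 classes its highest levels were in astrocyte-like cells, at 3.11, 2.32, 1.77 and 1.26 per 10000 (young 1, young 2, aged 1, aged 2), and in oligodendrocyte-like cells, at 3.25, 2.61, 1.42 and 1.16. Only in oligodendrocyte-like cells did it exceed the highest of the 20 rarest genes in every section, by 1.22 to 2.38 times, and with the detected-marker rule for mixed cells or with 40 rare genes it did so in 0 classes. In microglia-like cells Tnf stood at 2.20, 0.675, 1.21 and 2.86 per 10000, which rests on 75, 21, 23 and 70 transcripts, and the ages overlapped. In the border macrophage-like subcluster it stood at 2.46, 2.15, 3.11 and 3.17, on 13, 10, 7 and 9 transcripts, a higher mean than in any of the 7 classes. In neuron-like cells it was at 0.814 to 1.14. In the order of the 7 classes none differed from its neighbour beyond the spread between sections.

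Il1b was not above the floor in any class. Over all cells it had 6851 transcripts, within the range of the 20 genes of the floor, and was itself number 13 from the rarest of the panel. Microglia-like cells held 15, 7, 9 and 14 transcripts, or 0.439, 0.225, 0.472 and 0.572 per 10000, beside a median of the 20 rare genes of 0.446 to 0.673. The highest class was neuron-like, at 0.766, 0.440, 1.35 and 0.767 per 10000, and the first aged section there was the sole value of any class above the highest rare gene. Border macrophage-like cells held 1.14, 1.93, 0.00 and 1.76 per 10000.

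Transcripts of Tnf and Il1b were spread singly over cells, with few exceptions. In the 4 sections, 5 kept cells held 5 or more Tnf transcripts, and 3 held 5 or more of Il1b. Of these 3, a vascular-like cell counted as mixed held 8 Il1b transcripts and 35 of microglia markers. Another vascular-like cell held 7 and 10, and an oligodendrocyte-like cell 7 and 1. The cell with most Tnf was 1 microglia-like cell of the second young section, counted as mixed. It held 32 Tnf transcripts among 619, 1 of Il1b and 72 of the 8 microglia markers. The second was a microglia-like mixed cell of the second aged section, with 9 Tnf and 3 Il1b transcripts. Among microglia-like cells not set aside as mixed the most was 6 Tnf transcripts in a cell, again in the second aged section. The limit of 5 was chosen after the values were seen.

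The NF-kB subunits differed in their classes. Nfkb1 was highest in microglia-like cells, at 33.8 and 38.8 per 10000 in the young and 37.1 and 29.6 in the aged sections, 2.79-fold above vascular-like cells (10.8 to 13.7), and these ranges did not overlap. It was lowest in medium spiny neuron-like cells, at 2.88 to 4.13. Rela was highest in microglia-like cells, at 20.9, 17.3, 15.3 and 20.9 per 10000, and in oligodendrocyte-like cells, at 21.6, 17.9, 13.3 and 21.2. The 2 ranges overlapped almost fully, whereas Nfkb1 in oligodendrocyte-like cells stood at 5.03 to 6.73, below vascular-like, precursor-like and astrocyte-like cells. Rela was 2.28-fold lower in neuron-like than in astrocyte-like cells, and from microglia-like down to astrocyte-like each class overlapped the next. In all 7 classes the first aged section, the one of lowest depth, had the lowest Rela level. Whether depth had a part in this was not tested.

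Nfkbiz, the inducible regulator, was highest in microglia-like cells at 11.5, 9.51, 10.8 and 8.82 per 10000, 1.69-fold above vascular-like cells, whose range of 4.95 to 7.30 it did not overlap. Its lowest class was oligodendrocyte-like, at 1.56 to 2.27. Stat3 was broad: oligodendrocyte precursor-like cells were highest at 31.5, 26.2, 32.8 and 28.7 per 10000, and medium spiny neuron-like cells lowest at 9.89 to 10.6, a 2.93-fold difference. Vascular-like (22.5 to 25.9), microglia-like (21.5 to 25.4) and astrocyte-like cells (19.99 to 23.6) overlapped in that order. In fibroblast-like cells, a vascular-like subcluster, Stat3 reached 30.2 to 39.7.

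Over the 28 sums of 7 classes in 4 sections, the panel genes whose levels were most like those of each member were ranked by Pearson's r, as a description across sums that share sections and depth. Tgfb1 was most like Pld4 (0.963), which microglia express, Icam1 (0.961), an adhesion molecule, and Cd37 (0.959), a tetraspanin of leukocytes. Nfkb1 was most like Parp9 (0.925), Ctsd (0.877) and Laptm5 (0.877). For Il18 these were Hes5 (0.906), Plpp3 (0.874) and Prdx6 (0.868), which astrocytes express. Nfkbiz followed Parp9 (0.873), Il10rb (0.803) and Tapbp (0.794), and Stat3 followed Parp12 (0.911), Parp9 (0.845) and Dnmt3b (0.825). Rela was most like Gatm (0.823), Jun (0.772) and Il6 (0.770), and Il1b like Cxcl10 (0.820), Npy (0.714) and Htr2c (0.709). Tnf had the lowest values of the 8, with Thbs4 (0.709), Sirt7 (0.634) and Top2a (0.606).

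The second question was whether these genes changed between 2 and 18 months. One of the 55 gene and class pairs that could be tested passed the threshold: Tnf fell in oligodendrocyte-like cells. In that class 3.66% of the 383 genes passed, and 1.83% passed as lower in aged sections. In the other classes 0 of the 8 genes (7 in oligodendrocyte precursor-like cells, where Il1b was too low to test) passed the quasi-likelihood test of edgeR (p adjusted by Benjamini-Hochberg), nor did any in DESeq2. The share of all genes that passed was 3.39% in astrocyte-like (2.87% as lower), 0.829% in oligodendrocyte precursor-like and 0.267% in microglia-like cells, and 0.0% in vascular-like, medium spiny neuron-like and neuron-like cells. At an unadjusted p under 0.05 there was 1 gene each in astrocyte-like (Tnf) and neuron-like cells (Il1b), and 0 in the other 4.

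For the 6 genes other than Tnf and Il1b, the 42 log2 fold changes lay between -0.27 and 0.32, 23 of them lower and 19 higher in aged sections, with 95% intervals that reached from -0.75 to 0.94. Changes within these bounds cannot be told from no change with 2 sections per age. In microglia-like cells Tgfb1 had a log2 fold change of -0.24 ± 0.15 (SE; adjusted p = 0.531, edgeR), with a 95% interval of -0.56 to 0.09. Nfkb1 had -0.20 ± 0.17 (adjusted p = 0.637), Rela -0.15 ± 0.19 (0.782), Nfkbiz -0.18 ± 0.21 (0.778), Stat3 -0.14 ± 0.16 (0.778) and Il18 -0.07 ± 0.20 (0.916). The ranges of the young and the aged sections overlapped for each of these 6. Il18 in astrocyte-like cells had -0.03 ± 0.14 (adjusted p = 0.936), with an interval of -0.34 to 0.27, and Stat3 in oligodendrocyte precursor-like cells 0.08 ± 0.18 (adjusted p = 0.910).

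**Figure D2:**
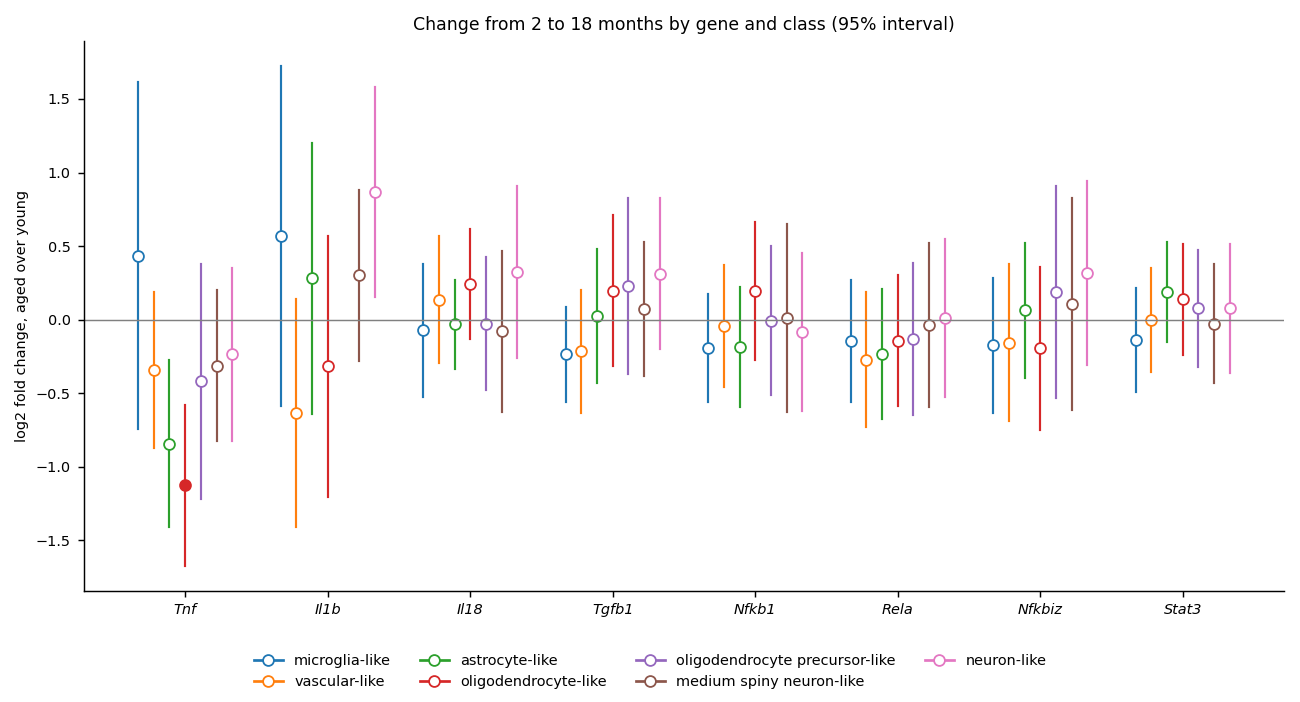
Log2 fold change of each gene from 2 to 18 months in 7 cell classes (points, edgeR) with 95% intervals (lines); the filled point passed an adjusted p of 0.05. Tnf in oligodendrocyte-like cells is the sole filled point, and Tnf and Il1b have the widest intervals.

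Tnf in oligodendrocyte-like cells stood at 3.25 and 2.61 per 10000 in the young sections (581 and 410 transcripts) and at 1.42 and 1.16 in the aged sections (183 and 207). Both aged sections were below both young ones. The log2 fold change was -1.13 ± 0.26 (SE; adjusted p = 0.0192, edgeR), a fold of 0.457. In astrocyte-like cells the levels of 3.11 and 2.32 (young) against 1.77 and 1.26 (aged) gave -0.84 ± 0.27, which did not pass (adjusted p = 0.135). The 2 aged sections also lay below the 2 young ones in vascular-like, medium spiny neuron-like and neuron-like cells, at levels near the floor, while in microglia-like and oligodendrocyte precursor-like cells the ages overlapped. In neuron-like cells the change was -0.24 ± 0.28 (adjusted p = 0.897) and in microglia-like cells 0.44 ± 0.53 (adjusted p = 0.778). The age change in oligodendrocyte-like cells differed from that in neuron-like cells by -0.92 ± 0.25 on the log2 scale (adjusted p = 0.00897, edgeR, both classes of each section in 1 fit), where 46 of 383 genes differed and 25 (6.53%) did so in that direction. This comparison was added after the data were seen, and it was the one of 48 such tests, of 8 genes in 6 classes against neuron-like cells, that passed. This call was lost when any 1 of the 4 sections was left out. Tnf in neuron-like cells lay near the floor, and whether that had a part in the difference was not tested.

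Other measures are set beside this change, and not all of them moved with it. The summed level of the 20 rarest genes in oligodendrocyte-like cells was 11.97, 8.67, 8.18 and 8.88 per 10000, highest in the same section as Tnf. The median log2 fold change of these 20 genes was -0.06, 12 of them were lower, and 0 passed. The 6 neuroblast markers (Dcx, Sox11, Sox4, Dlx6os1, Ccnd2 and Mdk) summed to 31.4, 29.8, 20.9 and 20.3 per 10000 in this class, 5 of the 6 being lower in both aged sections, and none of the 6 was at 0. In astrocyte-like cells they summed to 171, 233, 83.9 and 91.0. The astrocyte-like cluster passed the neuroblast marker list as well as that of astrocytes. At a Louvain resolution of 0.3 a separate neuroblast-like cluster held 1028 and 1103 cells in the young and 430 and 501 in the aged sections. In oligodendrocyte-like cells the microglia markers summed to 35.98, 33.1, 38.0 and 37.8, higher in both aged sections. The 7 oligodendrocyte markers there summed to 3096, 3233, 2865 and 2641. Of these 7, 4 were lower and 0 higher in both aged sections. The median transcripts per oligodendrocyte-like cell were 281 and 226 in the young and 147 and 190 in the aged sections, so depth and age ran together. The part of these measures in the fall of Tnf was not tested. In tissue rich in medium spiny neuron-like cells the log2 fold change was -1.23, which did not pass (adjusted p = 0.0915). The call was lost without the first young section (adjusted p = 0.462), without the second young section (0.139), without the second aged section (0.0829) and with mixed cells kept (log2 fold change -0.85, 0.0954). Over the 15 alternatives the adjusted p ran from 0.000135 to 0.462, and 10 kept the call.

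**Figure D3:**
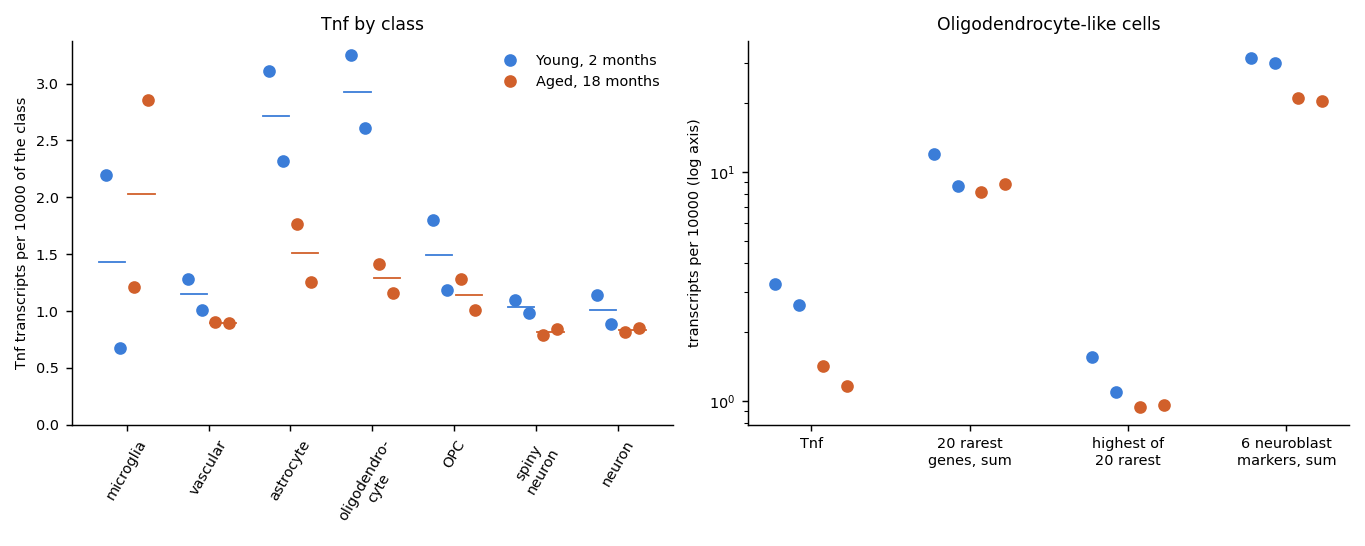
Left, Tnf (transcripts per 10000, 1 point per section, bars for the mean of each age) in 7 cell classes; right, Tnf in oligodendrocyte-like cells beside the sum and the highest of the 20 rarest genes and the sum of 6 neuroblast markers (log axis). The aged sections at 1.42 and 1.16 lie below the young ones at 3.25 and 2.61, and the neuroblast sum is also lower in both aged sections.

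Il1b had a log2 fold change of 0.87 ± 0.34 in neuron-like cells (unadjusted p = 0.0200, adjusted p = 0.620, edgeR), where its levels of 0.766 and 0.440 (young) and 1.35 and 0.767 (aged) stood at the floor. In microglia-like cells it had 0.57 ± 0.52 (adjusted p = 0.676). The interval of -0.59 to 1.73 includes both a fall and a rise.

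Other genes of these pathways on the panel were taken as lists, of which 3 are given here. Of 14 other cytokines and chemokines, 1 rose in oligodendrocyte-like cells and 0 passed in the other 6 classes (edgeR; 17 of 96 gene and class pairs had an unadjusted p under 0.05, and DESeq2 called 3 pairs). This was Il33, an alarmin, at 189 and 203 per 10000 in the young and 398 and 333 in the aged sections (log2 fold change 0.95 ± 0.17, adjusted p = 0.00412). The median over the 14 in that class was -0.34, beside 0.01 for all 383 genes. Of 12 genes that respond to NF-kB, 1 passed, in astrocyte-like cells (DESeq2 called 2 pairs of 83). It was the complement gene C3, at 2.08 and 1.48 (young) and 5.23 and 7.70 (aged) per 10000 (1.86 ± 0.25, adjusted p = 0.000145), named here after its value was seen. The median of those 12 in astrocyte-like cells was -0.06.

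Of 4 reactivity genes linked to Stat3 (Gfap, Vim, Serpina3n, Cebpb), Gfap, an intermediate filament of astrocytes, rose in microglia-like cells from 31.0 and 26.8 to 71.0 and 54.6 per 10000 (1.05 ± 0.17, adjusted p = 0.0329). It also rose in oligodendrocyte-like cells (0.66 ± 0.17, adjusted p = 0.0492). In the other 5 classes none of the 4 passed in edgeR or DESeq2, and 7 of the 28 pairs over all classes had an unadjusted p under 0.05. In astrocyte-like cells, where Gfap was higher than in either of these classes, it stood at 125 and 111 per 10000 in the young and 160 and 118 in the aged sections (0.25 ± 0.16, adjusted p = 0.520). In microglia-like cells the 7 astrocyte markers summed to 237 and 232 per 10000 in the young and 292 and 277 in the aged sections, and 4 of the 7 were higher in both aged sections. Their part in the rise of Gfap in that class was not tested.

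The third comparison set white matter against other tissue, as a measure that the choice of genes had not used. A cell was placed in the white matter zone when at least 50% of the cells within 100 µm were oligodendrocyte-like. Of microglia-like cells 41 to 105 per section lay in that zone. There 0 of the 7 genes tested passed in edgeR with the section as a block, 0 had an unadjusted p under 0.05 and 0 passed in DESeq2, whereas 28.2% of the 348 genes tested passed. Tgfb1 averaged 56.4 ± 8.63 per 10000 in the zone and 56.5 ± 6.49 outside it (SD, n = 4 sections). The 7 fitted differences ran from 0.04 to 0.50 on the log2 scale, but the mean level was lower in the zone for Rela, Stat3 and Tgfb1, and Tnf was higher there in 1 of 4 sections. Rela turned sign in 7 of 11 alternatives. In these cells the 7 oligodendrocyte markers summed to 225 to 277 per 10000 in the zone and to 73.3 to 94.6 outside it. Of the listed genes, Gfap (2.39 ± 0.12), Il33 (1.45 ± 0.23), Vim (1.23 ± 0.26) and the chemokine Ccl9 (0.81 ± 0.29) were higher in the zone in microglia-like cells. Il33 stood at 189 to 398 per 10000 in oligodendrocyte-like and 6.29 to 13.5 in microglia-like cells. In all 4 sections 7 of the 7 oligodendrocyte markers were higher in the zone, and of the 7 astrocyte markers 0 were higher and 3 lower. The part of transcripts from neighbouring cells in these 4 differences was not tested.

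In astrocyte-like cells (206 to 309 per section in the zone) Il18 was the one of 8 genes that passed, where 37.1% of 377 genes did. It stood at 32.2, 32.2, 21.4 and 30.7 per 10000 in the zone against 47.0, 46.7, 44.8 and 47.4 outside it (young 1, young 2, aged 1, aged 2), lower in 4 of 4 sections. Of all genes tested, 19.9% passed as lower in the zone. The log2 difference was -0.48 ± 0.14 (adjusted p = 0.0294, edgeR). Leaving out the second young (adjusted p = 0.0593), the first aged (0.124) or the second aged section (0.0863) lost the call. Over all alternatives the difference lay between -0.69 and -0.36, with adjusted p from 0.00698 to 0.124. The 7 oligodendrocyte markers summed to 138, 155, 134 and 106 per 10000 in the zone and to 35.98, 34.1, 40.3 and 34.8 outside it in the same astrocyte-like cells. The 7 astrocyte markers summed to 2039, 2481, 2245 and 2516 in the zone and to 2730, 2669, 2740 and 2782 outside it. The part of these shifts in the lower Il18 was not tested. Stat3 had 0.37 ± 0.16 (adjusted p = 0.108) and Nfkbiz -0.40 ± 0.24 (adjusted p = 0.245), with Nfkbiz lower in 4 of 4 sections and Stat3 higher in 3 of 4. Among the listed genes, Gfap (2.21 ± 0.10), Vim (1.29 ± 0.15) and Serpina3n (0.93 ± 0.22) were higher in this zone, 3 of the 4 genes linked to Stat3. Of the 14 other cytokines and chemokines, Tgfb3 was higher (0.84 ± 0.25) and Il33 lower (-0.87 ± 0.21), and in neither class did an NF-kB responsive gene pass in edgeR (unadjusted p under 0.05 for 3 of 21 pairs). DESeq2 called 1 of these pairs, C3 in astrocyte-like cells.

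With mixed cells kept, 3 genes were higher in the zone in microglia-like cells: Tnf (log2 difference 2.06, adjusted p = 0.0112), Il18 (0.79, adjusted p = 0.00605) and Rela (0.46, adjusted p = 0.0481). In that setting 40.5% of the 375 genes tested passed, and 16.0% passed as higher. The cell with 32 Tnf transcripts lay in the zone, with 56.4% of its neighbours oligodendrocyte-like. Without this 1 cell, Tnf had 1.32 (adjusted p = 0.00681), where 40.8% of genes passed and 16.3% as higher. Without any mixed cell it had 0.50 ± 0.68 (adjusted p = 0.650), and across the alternatives its adjusted p ran from 0.00681 to 0.921. Mixed cells carry markers of another class, and the zone is rich in oligodendrocyte-like cells. With mixed cells set aside, mean Il18 was 16.2 in oligodendrocyte-like and 9.60 in microglia-like cells. Mean Tnf was 2.11 and 1.73 in these classes, and mean Rela 18.5 and 18.6, with overlapping ranges for both genes. The part of oligodendrocyte-like transcripts in the 3 zone differences was not tested.

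**Figure D4:**
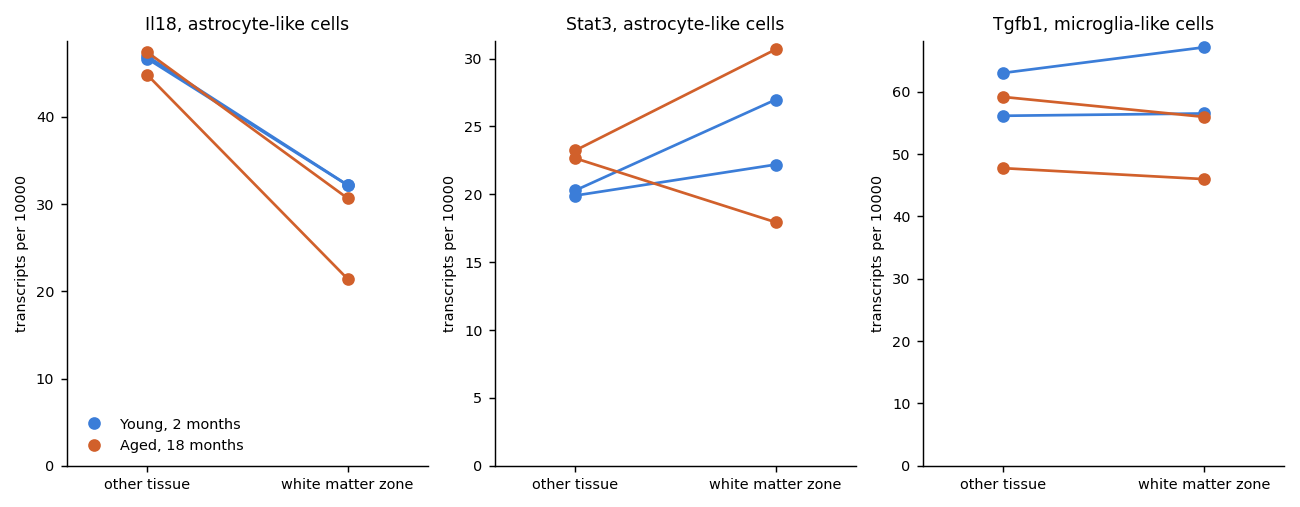
Level (transcripts per 10000) of Il18 and Stat3 in astrocyte-like cells and of Tgfb1 in microglia-like cells outside and inside the white matter zone, with 1 line per section (blue 2 months, orange 18 months). Il18 falls in all 4 lines, from 44.8 to 47.4 outside to 21.4 to 32.2 inside, while Stat3 and Tgfb1 are higher in some sections and lower in others.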

How the data were processed

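MERFISH counts of 383 genes were analysed in 4 coronal sections that included the striatum, 2 at 2 months and 2 at 18 months. Cells were not limited to the striatum. The authors used a custom probe library on a Vizgen instrument, called transcripts from the images with MERLIN, and outlined cells before deposit. The deposited tables hold whole-number counts of decoded transcripts per cell and gene, with no normalization, and for each cell its volume, used as a deposited signal in cubic micrometres, and its position. A genome build is not given in the sources used here, and a deposited table of means per section was not used. The labels inside the young tables carry other section numbers than the titles, and the grouping follows the titles. The tables hold no blank probes, so the 20 rarest panel genes stood for the floor.

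Cells with at least 10 genes and 50 µm³ were kept, scaled by volume and total to 10000, and clustered on 15 principal components with 20 neighbours (Louvain, resolution 0.08; Python 3.11.15, igraph 0.11.9, scikit-learn 1.9.0), without the 8 genes and the 29 listed genes. Clusters were named by marker lists, and differences from the study may come from these rebuilt names. No doublet caller was run, and mixed cells were set aside as described. Counts were summed per class and section and tested with edgeR 4.0.16 (R 4.3.3; TMM, filterByExpr, quasi-likelihood test, two-sided, Benjamini-Hochberg over all genes tested in the class, threshold 0.05), with DESeq2 1.42.0 as an alternative. With 2 sections per age, an exact permutation test cannot go below p = 0.333. On simulated counts for astrocyte-like cells (382 genes tested, 199 changed), edgeR called 97.8% of genes changed at least 2-fold and 44.6% of those changed less, with 6 unchanged genes called. With so many genes changed the adjustment of p is more lenient than in the data, where 13 of 383 genes passed in this class. Smaller classes were not simulated, so these shares do not give the power of the age tests. Depth ranged from 18816375 to 36116711 transcripts per section, and counts of a few transcripts carry counting error beyond the spread given. Fewer cells of a class do not alter a level per 10000, but a level is relative to the other panel genes.

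The genes and lists were chosen with earlier results of these data known. The results of a list of receptors are not reported here. Age changes are given in full for each gene in its highest class, in microglia-like cells and where it passed the threshold. Listed genes are named where they passed in microglia-like cells or in the class with the most calls, and the 3 panel genes most like each member are named by Pearson's r of log2(level + 0.1). Promoter sequences and positions are from RefSeq tables on GRCm38.p6.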

Additional observations from a re-analysis of the deposited data

Results flagged for a closer look

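With mixed cells set aside and all sections kept, the age change of Tnf differed between oligodendrocyte-like and neuron-like cells of the same sections. Its log2 fold change from 2 to 18 months was lower in oligodendrocyte-like cells by -0.92 ± 0.25 (SE; 95% interval -1.42 to -0.41, adjusted p = 0.00897, edgeR). The choice of neuron-like cells as the reference was made after the data were seen, and 1 of 48 such tests passed.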

How the results depend on the processing

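Each result kept its direction wherever it was called. For Tnf in oligodendrocyte-like cells, 0 genes of the 8 passed with mixed cells kept and in spiny neuron-rich tissue alone, and 0 to 1 when 1 section was left out. In astrocyte-like cells 1 passed per volume (Tnf, log2 fold change -1.29, adjusted p = 0.0270) and 0 to 1 with a section left out (1 without the second young section, Tnf at -1.03). The difference of Tnf between oligodendrocyte-like and neuron-like cells was -0.58 with mixed cells kept (adjusted p = 0.110) and -1.12 to -0.70 with a section left out. Between zones, 3 genes passed in microglia-like cells with mixed cells kept, also without the cell with most Tnf, and 0 to 1 in astrocyte-like cells with a section left out. Tnf was above the rarest genes in 3 classes against the 10 rarest genes and in 0 against the 40 rarest. Against the 40 rarest genes Tgfb1 was above in 3 classes and Nfkbiz in 2, in place of 7 and 6. Over all alternatives, 414 values of single genes stayed on their side of the threshold, 12 lost a call and 10 gained one, and of the counts per comparison and the difference between classes 129 stayed, 13 fell and 4 rose. Small changes that were not called turned sign in some alternatives.

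Counts over all genes moved more. In oligodendrocyte-like cells 14 genes passed with age, against 55 per volume, 29 with the detected-marker rule, 7 with mixed cells kept, 2 in spiny neuron-rich tissue and 0 without the first young section. In astrocyte-like cells 13 passed, against 3 at resolution 0.3 and 4 in spiny neuron-rich tissue, and in microglia-like cells 1, with 0 to 17 over the alternatives. Oligodendrocyte precursor-like cells gave 3, with 0 to 8, and vascular-like cells 0, with 0 to 3. Between zones 98 genes passed in microglia-like cells (63 to 153) and 140 in astrocyte-like cells (64 to 152). The difference between oligodendrocyte-like and neuron-like cells gave 46 (0 to 46). Counting per volume lowered the median of all genes by up to 0.66 on the log2 scale, so the larger falls on that scale are relative to it. The causes of these shifts were not tested.

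Replicate numbers shared between ages did not pair the sections (correlation of deviations from -0.43 to -0.12 over the 7 classes). With the replicate block the count of members called was unchanged in each class (Tnf in oligodendrocyte-like cells -1.13, adjusted p = 0.0133), and 5, 14 and 12 of all genes passed in microglia-like, oligodendrocyte-like and astrocyte-like cells, against 17, 36 and 15 with the numbers crossed, an alternative chosen after seeing the data. Leaving out border macrophage-like subclusters gave no value, since microglia-like cells held none. Depth limits Tnf and Il1b most: 21 to 75 and 7 to 15 transcripts per section in microglia-like cells.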

Other observations

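A further kept cell of the second young section, neuron-like and mixed, held 8 Tnf transcripts among 45 in all, with 7 of microglia markers and 0 of Il1b. In that section 55.9% of the cells within 100 µm of it were oligodendrocyte-like.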
